A study of Mus musculus with 4 samples.

Results

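The BCL-2 family decides whether the outer membrane of mitochondria is breached during programmed cell death, and 10 of its genes were followed across 4 RNA libraries of mouse embryonic stem cells. They were the 3 protective genes Bcl2, Bcl2l1 and Mcl1 and 7 death-promoting genes, of which Bax and Bak1 are effectors and Bcl2l11, Bmf, Bbc3, Bid and Bad carry only a BH3 motif. Members were taken by gene symbol from a table of 33818 RefSeq transcripts, in which they have 19 transcripts, and the FPKM values (fragments scaled by transcript length and library total) were summed per gene. They are 10 of 20619 protein-coding genes, and 9 of them are among the 10688 genes that were compared because their mean over the libraries reached 1 FPKM. Bcl2 did not reach it and is given with its values. Bmf reached it through control and Mff-/- only.

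The series concerns genes of mitochondrial fission and asks how they bear on mitochondrial morphology and on metabolism in these cells. The control was the parental line E14Tg2a, an established embryonic stem cell line of strain 129/Ola. The knockout lines were Dnm1l-/-, Fis1-/- and Mff-/-, of the same strain, and each line gave 1 library. Dnm1l encodes Drp1, the GTPase that constricts mitochondria, and Fis1 and Mff encode outer membrane proteins of the fission machinery. All lines were at passages 30 to 35 and were grown on mouse embryonic fibroblast feeders in serum with leukemia inhibitory factor. The sources used here do not give how the knockouts were made or from how many clones. With 1 library per line no test could be made, and the values compare these libraries only. The 3 comparisons share the 1 control library, so their differences are not independent of each other.

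In healthy cells the protective proteins, BCL-2, BCL-XL (from Bcl2l1) and MCL-1, hold the effectors and their activators in check. When BH3-only proteins accumulate or are activated, they occupy the protective proteins, and some of them activate BAX and BAK directly. BAX and BAK then form pores through which cytochrome c leaves the mitochondrion and starts the caspase cascade. Drp1 and BAX meet at the same sites of the outer membrane during apoptosis, and embryonic stem cells are known to be primed for this death, with abundant BAX. Much of the control of these proteins lies beyond the RNA, in phosphorylation, cleavage and degradation, which these values do not show.

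The libraries held an estimated 35500000 to 38000000 fragments, so that 1 FPKM of a transcript 2 kilobases long corresponds to 71.0 to 76.0 of them. Each targeted gene was lowest in its own knockout: Dnm1l at 22.9 FPKM against 35.0 in control, Fis1 at 56.2 against 103, and Mff at 11.8 against 28.9. All 8 embryonic stem cell markers were above the limit on low values. They summed to 4654 to 8126 FPKM, mostly Dppa5a (2742 to 5551), and did not move alike. Above control were 5 of the 8 in Dnm1l-/-, 5 in Fis1-/- and 4 in Mff-/-, and the others were below. Nanog stood at 221 FPKM in control and 437, 389 and 178 in Dnm1l-/-, Fis1-/- and Mff-/-. In the same order, Tfcp2l1 was at 35.4, 114, 88.8 and 23.5 FPKM and Pou5f1 at 1208, 913, 808 and 1753. Feeder fibroblast markers summed to 187 FPKM in control and 105, 134 and 217 in Dnm1l-/-, Fis1-/- and Mff-/-, with none of the 11 at 0. Of the 6 that passed the limit, 3 were at least 2-fold higher in Mff-/- (Thy1, Acta2 and S100a4), against 2.61% of all genes. Vim was the 1 of the 6 that lay below control there (-0.21), and at 170 FPKM it made up most of the control sum. The feeder share of the RNA was not measured. In bulk RNA fewer cells of a kind and less RNA per cell cannot be told apart.

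Bmf and Bbc3 differed most between the libraries, and their upstream sequences are shown because each gene has 1 start in the deposited table. Bcl2l1 has a pair of starts whose use differed between libraries, and the sequence before each is shown for comparison. Each run is the 250 bases before the transcription start in RefSeq (GRCm38), read along the strand of the gene, with capitals for matches to the motifs searched. They lie at chr2:118549687-118549936 (minus strand) for Bmf, chr7:16309333-16309582 (plus strand) for Bbc3, and chr2:152830718-152830967 and chr2:152831729-152831978 (both minus strand) for the inner and the outer start of Bcl2l1.
Bmf: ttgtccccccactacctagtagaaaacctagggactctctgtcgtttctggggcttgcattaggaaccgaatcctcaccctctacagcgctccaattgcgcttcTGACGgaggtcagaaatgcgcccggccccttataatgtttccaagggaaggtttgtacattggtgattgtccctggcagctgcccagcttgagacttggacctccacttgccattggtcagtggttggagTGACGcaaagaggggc
Bbc3: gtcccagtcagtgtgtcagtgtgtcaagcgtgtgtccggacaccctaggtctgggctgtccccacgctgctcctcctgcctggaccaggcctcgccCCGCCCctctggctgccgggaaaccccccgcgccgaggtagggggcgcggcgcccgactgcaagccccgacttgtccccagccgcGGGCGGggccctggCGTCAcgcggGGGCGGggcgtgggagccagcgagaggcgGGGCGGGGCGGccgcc
Bcl2l1, inner start: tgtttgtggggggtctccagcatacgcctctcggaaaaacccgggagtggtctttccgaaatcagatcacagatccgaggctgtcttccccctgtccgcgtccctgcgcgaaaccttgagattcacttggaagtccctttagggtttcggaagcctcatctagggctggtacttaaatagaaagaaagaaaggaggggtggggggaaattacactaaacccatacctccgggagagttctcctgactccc
Bcl2l1, outer start: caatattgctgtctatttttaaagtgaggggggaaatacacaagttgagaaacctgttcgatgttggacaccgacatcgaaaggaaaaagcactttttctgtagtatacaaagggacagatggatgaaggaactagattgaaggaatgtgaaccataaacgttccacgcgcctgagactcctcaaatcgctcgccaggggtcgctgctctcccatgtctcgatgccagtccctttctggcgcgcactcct
The motifs were GGGCGG (GC box), CACGTG (E-box), TGTTTAC (FOXO), TGATGNAA (the element bound by ATF4 and its partners) and TGACG (the half-site of cyclic AMP response elements), on both strands. Among 32851 mouse promoters cut the same way, 32.7%, 6.02%, 3.17%, 3.45% and 17.8% hold them, in that order. Bmf holds TGACG at 2 places, from base -146 to -142 and from -16 to -12 counted from the start. Bbc3 holds GGGCGG at 5 places, of which the last 2 share base -11 and the first is read on the other strand, and TGACG at 1, also on the other strand. Neither Bcl2l1 sequence holds any of the 5. The GC content was 54.0% before Bmf, 76.4% before Bbc3, 53.2% before the inner and 47.6% before the outer start of Bcl2l1. These matches describe the letters only, and binding was not measured.

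The family was dominated by Bax and Mcl1 in every library. In control, Bax stood at 301 FPKM, above 97.9% of the genes compared, and Mcl1 at 122 FPKM, above 94.4%. Bak1 (24.8 FPKM), Bcl2l1 (23.5) and Bbc3 (21.9) followed, and the 95% interval of Bcl2l1 overlapped those of Bak1 and Bbc3. These intervals, from the estimated fragments, cover counting error only. Bid (19.0 FPKM), Bad (8.18), Bcl2l11 (6.60), Bmf (3.85) and Bcl2 (0.219) came after, and no interval among these 5 overlapped its neighbour's. Bax, Mcl1, Bad, Bcl2l11, Bmf and Bcl2 kept ranks 1, 2, 7, 8, 9 and 10 in all 4 libraries, while Bak1, Bcl2l1, Bbc3 and Bid exchanged the ranks between. Bbc3 was rank 5 in control, 6 in Dnm1l-/- and Fis1-/-, and 4 in Mff-/-. The ratio of the highest to the lowest library was 6.0 for Bmf, 2.09 for Bbc3 and 1.87 for Bax, and 1.29 for Mcl1 and Bad, the steadiest.

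**Figure D1:**
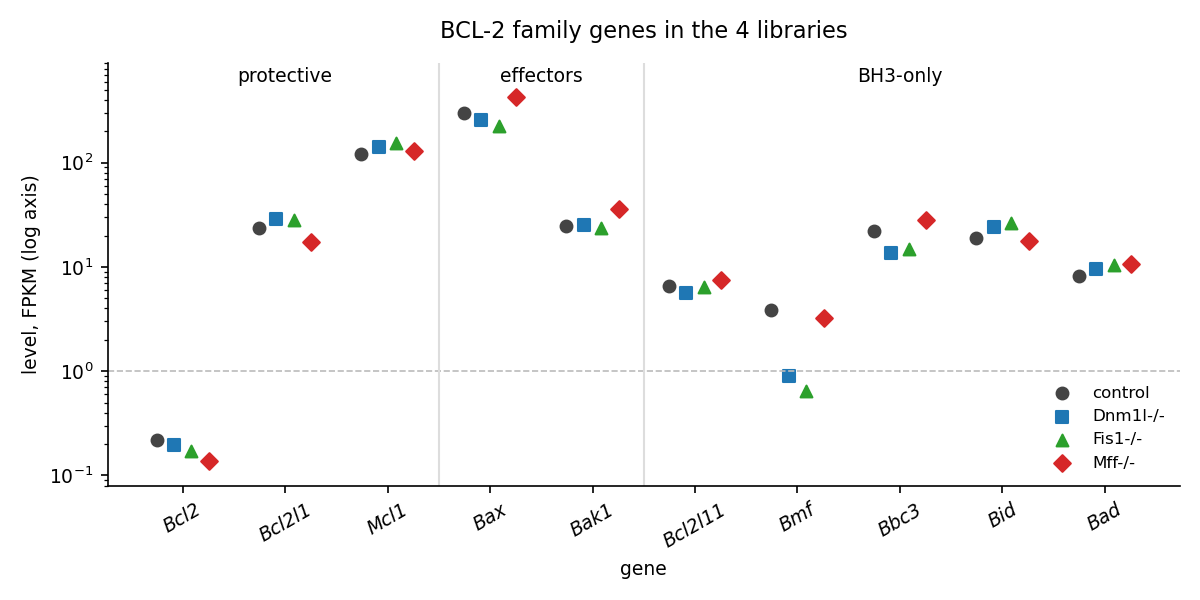
Level of each BCL-2 family gene in FPKM (vertical, log axis) in the control, Dnm1l-/-, Fis1-/- and Mff-/- libraries (1 point per library), ordered by role. Bax reaches 423 FPKM in Mff-/-, Bcl2 stays under 0.22 FPKM, and Bmf lies below the dashed line at 1 FPKM in Dnm1l-/- and Fis1-/- only.

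Among the protective genes, Bcl2l1 and Mcl1 were higher in Dnm1l-/- and Fis1-/- than in control, and Bcl2l1 was lower in Mff-/-. Mcl1 (chromosome 3, 95658721 to 95663178, mm10, plus strand) encodes a short-lived protein on which early embryonic cells depend. It stood at 122 FPKM in control and 142, 156 and 130 in Dnm1l-/-, Fis1-/- and Mff-/-. Its differences from control on the log2(FPKM + 1) scale, used throughout, were 0.22 (interval 0.19 to 0.25), 0.36 (0.33 to 0.39) and 0.09 (0.06 to 0.12). The one in Mff-/- turned to -0.09 when libraries were set to the same total of FPKM and to -0.13 with a total that leaves out the 1% most abundant genes, so that no direction can be given for it. All 3 intervals leave out 0, but they hold no spread between cultures.

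Bcl2l1 (chromosome 2, 152758732 to 152831728, minus strand) encodes BCL-XL and, through another splice form, a shorter protein that promotes death. Its 4 transcripts summed to 23.5 FPKM in control and 28.8, 28.5 and 17.2 in Dnm1l-/-, Fis1-/- and Mff-/-. The differences were 0.28 (0.20 to 0.36), 0.27 (0.19 to 0.35) and -0.42 (-0.51 to -0.33). The Mff-/- value ran from -0.63 with the 1% most abundant genes left out of the total to -0.17 with the highest transcript only. Mff-/- was the lowest of the 4 libraries and Dnm1l-/- and Fis1-/- the highest, close to each other. The gene shares 6306 bases of its span with Cox4i2, at 3.90, 4.59, 5.91 and 1.69 FPKM in the same order of libraries. The design text names a stranded kit and the extraction protocol a kit without that word, and the sources used here do not give whether reads were assigned by strand, so reads of overlapping genes may not be separated.

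The lower Bcl2l1 level in Mff-/- lay mostly in the transcripts of the inner start. The transcript of the outer start at base 152831728, NM_009743, held 17.9, 22.1, 21.8 and 15.8 FPKM in control, Dnm1l-/-, Fis1-/- and Mff-/-. The 3 transcripts of the inner start at base 152830717 summed to 5.53, 6.72, 6.71 and 1.44 FPKM. Their share of the gene was thus 23.6%, 23.3%, 23.6% and 8.37%. Of these 3, NM_001289716 differed most, at 4.84, 5.12, 4.60 and 0.344 FPKM, or an estimated 483, 478, 439 and 32 fragments. Its difference in Mff-/- was -2.12. NM_001289717, from the same start, was at 0.658, 1.45, 2.0 and 1.06 FPKM. The remaining transcript of that start, NM_001289739, stayed at or under 0.148 FPKM in every library. It runs on to base 152758732, while the other Bcl2l1 transcripts end at base 152780664. Which transcript, if any, encodes the shorter protein that promotes death was not examined. The quantifier divided fragments among these overlapping transcripts, so the split is an estimate and its error is larger than counting alone.

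Bcl2 (chromosome 1, 106538178 to 106714290, minus strand), the founding member of the family, was nearly silent. It was at 0.219 FPKM in control and 0.196, 0.173 and 0.137 in Dnm1l-/-, Fis1-/- and Mff-/-, from 18 to 32 estimated fragments. The genes compared were kept for a mean of at least 1 FPKM, which Bcl2 did not reach, so it was given no rank among them. The intervals of all 3 differences (-0.03, -0.06 and -0.10) include 0, so no difference was detectable at this depth.

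**Figure D2:**
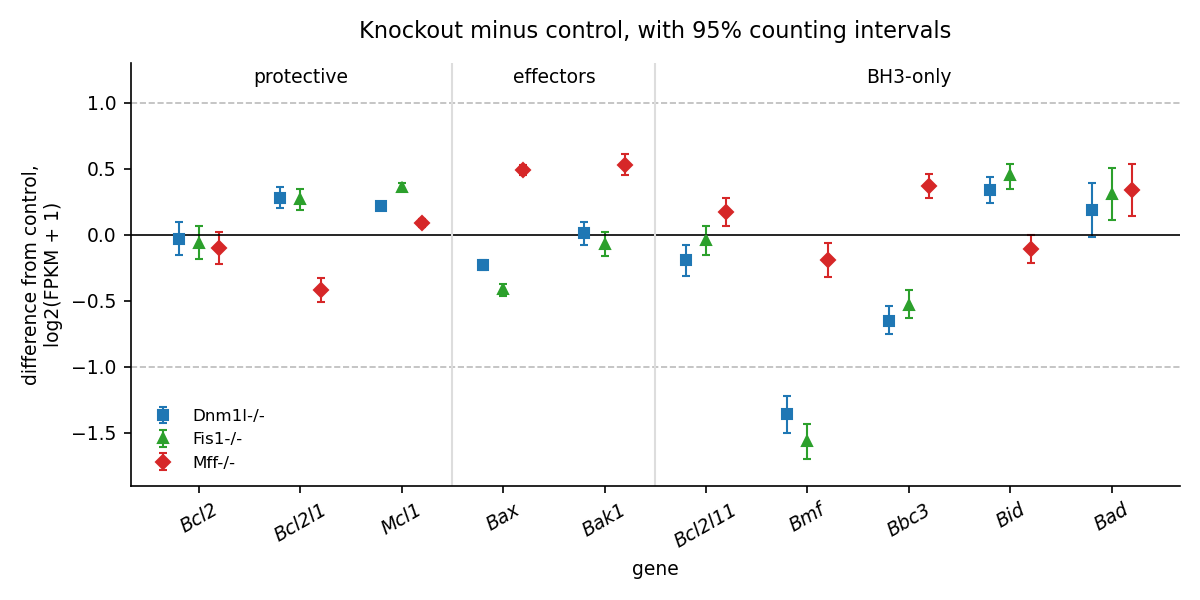
Difference of each knockout from control on the log2(FPKM + 1) scale (vertical) for the 10 genes, with 95% intervals that cover counting error only; dashed lines mark 2-fold. Bmf passes the lower line in Dnm1l-/- (-1.36) and Fis1-/- (-1.56), and Bax and Bak1 lie near 0.5 in Mff-/-.

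The effectors differed most in Mff-/-, where both were higher than in control. Bax (chromosome 7, 45461695 to 45466898, minus strand), which moves from the cytosol to mitochondria when activated, stood at 301 FPKM in control and 256, 226 and 423 in Dnm1l-/-, Fis1-/- and Mff-/-. The differences were -0.23 (-0.27 to -0.19), -0.41 (-0.46 to -0.37) and 0.49 (0.45 to 0.53). Dnm1l-/- and Fis1-/- thus lay below control and Mff-/- above it. Bak1 (chromosome 17, 27019812 to 27028626, minus strand), which resides on the outer membrane, was at 24.8, 25.0, 23.5 and 36.2 FPKM. It stood out in Mff-/- alone, with a difference of 0.53 (0.45 to 0.61), against 0.01 (-0.08 to 0.10) in Dnm1l-/- and -0.07 (-0.16 to 0.02) in Fis1-/-. The scalings tried moved the Mff-/- values between 0.27 and 0.55 for Bax and between 0.32 and 0.60 for Bak1. The ratio of Bax to Bak1 was 12.2 in control and 10.2, 9.61 and 11.7 in Dnm1l-/-, Fis1-/- and Mff-/-. The span of Bak1 shares 8815 bases with Ggnbp1, at 1.90 to 2.16 FPKM in the 4 libraries.

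Transcript length moved with the Mff-/- comparison across all genes. The rank correlation of difference and length over 10688 genes of these libraries was -0.46 in Mff-/-, 0.05 in Dnm1l-/- and 0.15 in Fis1-/-. In Mff-/- the median difference was 0.47 for 916 genes with transcripts under 1000 bases, 0.04 for 2755 genes of 1500 to 2500 bases and -0.31 for 2784 genes of 4000 bases or more. Bax, with 869 bases, lay at 0.49, near the median of its length class, and Bad, with 941 bases, lay below that median at 0.34. Bak1 (2002 bases) and Bbc3 (1976 bases), at 0.53 and 0.37, lay above the median of theirs, and Bid (1891 bases), at -0.11, below it. Bcl2l11 (4869 bases), at 0.17, and Bmf (4633 bases), at -0.19, lay above the median of the longest class, and Bcl2l1 (2421 bases), at -0.42, below that of its class. The part of length in these values was not tested.

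**Figure D3:**
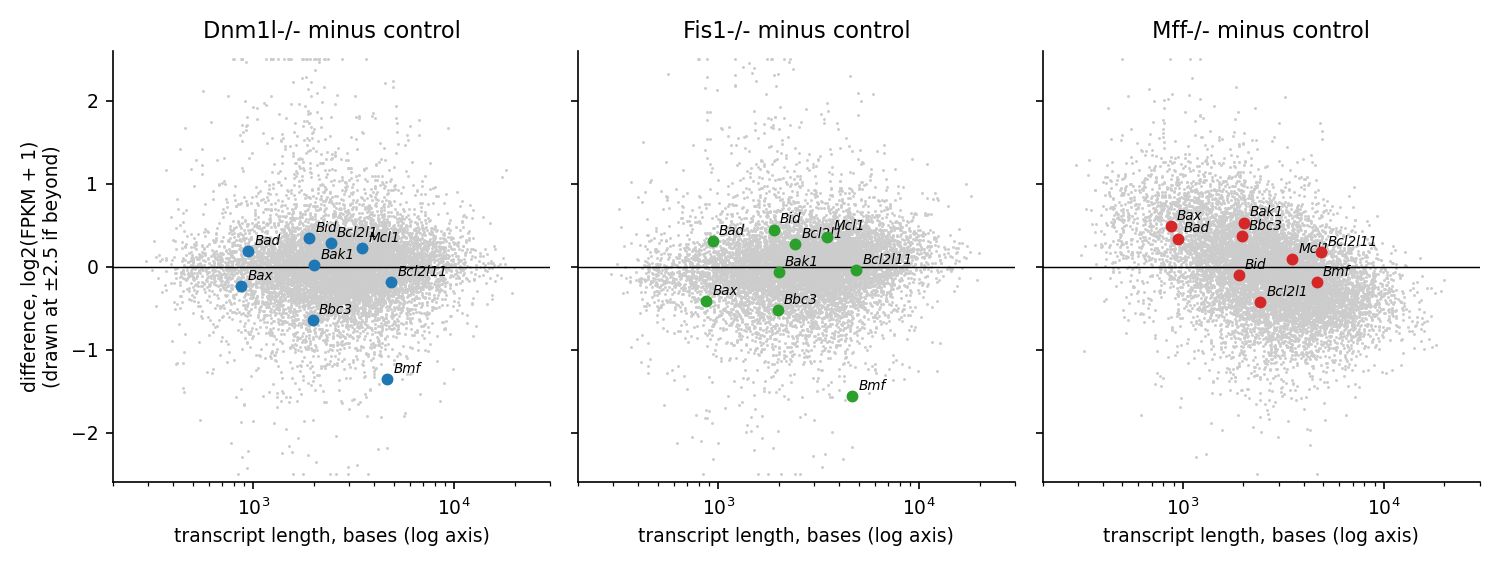
Difference of each knockout from control on the log2(FPKM + 1) scale (vertical) against the length of the gene's most abundant transcript in bases (horizontal, log axis), for 10688 genes (grey) and the 9 BCL-2 family genes among them (coloured). In Mff-/- the grey cloud slopes from a median of 0.47 under 1000 bases to -0.31 from 4000 bases on, while Bmf lies at the lower edge in Dnm1l-/- and Fis1-/-.

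Bmf was the one member that reached 2-fold. BMF is held at the dynein light chain of the cytoskeleton in attached cells and is released upon detachment to bind protective proteins. The gene (chromosome 2, 118528757 to 118549678, minus strand) was at 3.85 FPKM in control and 0.894, 0.642 and 3.26 in Dnm1l-/-, Fis1-/- and Mff-/-. These values rest on an estimated 678, 147, 108 and 541 fragments and come to 23.2%, 16.7% and 84.5% of control in the 3 knockouts. Control and Mff-/- were high and the other libraries low. The differences were -1.36 (-1.5 to -1.22), -1.56 (-1.70 to -1.43) and -0.19 (-0.32 to -0.06). Of the 10688 genes, 83 (0.777%) lay as far below control or farther in Dnm1l-/-, and 47 (0.440%) in Fis1-/-. Bmf is among these genes through its levels in control and Mff-/- only, so its place among them was partly set by that limit. With a pseudocount of 0.1 FPKM in place of 1 the differences were -1.99 and -2.41.

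At 2-fold, 1 of the 9 members compared was lower in Dnm1l-/-, against 2.09% of all genes, and 1 in Fis1-/-, against 1.89%, Bmf both times. Since Bmf passed the limit on low values through control and Mff-/- only, these counts rest partly on that limit. In Mff-/- 0 were lower, against 2.89% of all genes. Higher by 2-fold were 0 members in each knockout, against 2.51% of genes in Dnm1l-/-, 1.80% of them in Fis1-/- and 2.61% in Mff-/-. At 1.5-fold, 2 members (Bmf and Bbc3) were lower in Dnm1l-/-, against 7.25% of genes, 1 (Bmf) in Fis1-/-, against 6.93%, and 0 in Mff-/-, against 13.1%. At that size 0 were higher, against 6.40%, 5.55% and 10.8% in the same order. Apart from Bmf and Bbc3, every member compared was within 1.5-fold of control in all 3 knockouts as scaled by the authors. Under other settings, Bcl2l1 passed that size in Mff-/- with -0.60 (common FPKM total), -0.61 (TPM) and -0.63 (1% most abundant genes left out), Bak1 with 0.60 (centred on the median gene) and Bcl2l11 with 0.91 (highest transcript only).

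The genes nearest to Bmf by distance over its 3 differences were Dab1, an adaptor of Reelin signalling, Serpinh1, a collagen chaperone, and Hsd17b11, a lipid droplet enzyme. Their distances were 0.25, 0.26 and 0.30. Dab1 was at 6.79 FPKM in control and 1.74, 2.0 and 5.57 in Dnm1l-/-, Fis1-/- and Mff-/-. Serpinh1 was likewise low in Dnm1l-/- and Fis1-/-, with 19.8, 6.40, 5.90 and 20.3 FPKM, and Hsd17b11 with 30.9, 13.0, 10.6 and 23.0 FPKM. The likeness rests on 3 values that share 1 control.

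Bbc3 (chromosome 7, 16309583 to 16318334, plus strand) encodes PUMA, a p53 target that binds every protective protein. It was at 21.9 FPKM in control and 13.6, 14.9 and 28.4 in Dnm1l-/-, Fis1-/- and Mff-/-, that is 62.3%, 68.0% and 130% of control. The differences were -0.65 (-0.75 to -0.54), -0.53 (-0.63 to -0.42) and 0.37 (0.28 to 0.46). Dnm1l-/- and Fis1-/- lay below control and Mff-/- above it, as for Bax, and over the scalings tried the Mff-/- value ran from 0.15 to 0.43. The Bbc3 transcript has a GC content of 65.2%, the highest of the 10 genes. Over the 546 genes with a GC content of 60% or more, the median difference was -0.26 in Dnm1l-/- and -0.24 in Fis1-/-, and 0.08 in Mff-/-. The transcripts of Bax (59.2%) and Bmf (53.7%) belong to the 5148 genes of 50% to 60%, with medians of -0.07, -0.09 and -0.01. The part of GC content was not tested. Trp53, which encodes p53, stood at 214, 204, 216 and 220 FPKM, and the 6 p53 activity genes examined had medians of -0.05, -0.07 and -0.13. Single genes lay far from these medians, with Sesn2 at -1.05, -1.17 and -1.03 and Ccng1 at 0.82, 0.76 and -0.30. Above control were 3 of the 6 in Dnm1l-/-, 3 in Fis1-/- and 2 in Mff-/-, and the others were below. The part of p53 in the Bbc3 level was not tested.

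The summed level of 6 genes of the ATF4 stress response was, like Bmf and Bbc3, lower in Dnm1l-/- and Fis1-/- than in the other libraries. They summed to 439 FPKM in control and 361, 293 and 509 in Dnm1l-/-, Fis1-/- and Mff-/-, with medians of -1.17, -1.36 and 0.23 and none of them at 0 in any library. The 6 did not move alike. Atf4 itself lay above control in Dnm1l-/- (0.50) and Fis1-/- (0.18), and the other 5 lay below. Of these 5, Trib3, Chac1 and Atf3 passed 2-fold in both. Ddit3 (-0.19 and -0.38) and Asns (-0.49 and -0.74) did not. Bbc3 and Bmf are known to be inducible by stress. The part of this response in their levels was not tested.

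Bid (chromosome 6, 120893119 to 120916820, minus strand), which is cleaved by caspase 8 to become active, was higher than control where Bmf and Bbc3 were lower, in Dnm1l-/- and Fis1-/-. It was at 19.0 FPKM in control and 24.4, 26.3 and 17.6 in Dnm1l-/-, Fis1-/- and Mff-/-. The differences were 0.34 (0.24 to 0.44), 0.45 (0.35 to 0.54) and -0.11, the last from -0.31 to -0.04 over the scalings. Bad (chromosome 19, 6941861 to 6951905, plus strand), which 14-3-3 proteins keep in the cytosol while it is phosphorylated, was lowest in control. It stood at 8.18, 9.46, 10.4 and 10.6 FPKM, from 296 to 361 estimated fragments. Its interval in Dnm1l-/- (-0.02 to 0.39) includes 0, while those in Fis1-/- (0.11 to 0.51) and Mff-/- (0.14 to 0.54) do not, and the Mff-/- value of 0.34 ran from 0.14 to 0.40 over the scalings. Bad shares 590 bases with Gpr137, which was under 0.86 FPKM in each library.

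Bcl2l11 (chromosome 2, 128126038 to 128162547, plus strand) encodes BIM, an activator of BAX, and its sum differed little while its forms differed more. The sum was 6.60 FPKM in control and 5.66, 6.38 and 7.57 in Dnm1l-/-, Fis1-/- and Mff-/-. The differences were -0.19 (-0.31 to -0.08), -0.04 (-0.15 to 0.07) and 0.17 (0.07 to 0.28). The Fis1-/- value turned to 0.01 under a common FPKM total and under TPM, and the Mff-/- value to -0.02 with the 1% most abundant genes left out.
The protein forms of BIM differ by 2 neighbouring blocks of coding sequence, shown from GENCODE M21 transcripts (GRCm38) because the libraries differed in them. The first, of 168 bases at chr2:128128757-128128924 (plus strand), is in the extra long form only. It codes for the stretch that ERK phosphorylates, and the capitals mark that it begins with GT and ends with AG, the letters of an intron. The second, of 90 bases at chr2:128128925-128129014 (plus strand), follows at once. The extra long and long forms hold it and the short form does not, and it codes for the site that binds the dynein light chain.
Bcl2l11, block of the extra long form: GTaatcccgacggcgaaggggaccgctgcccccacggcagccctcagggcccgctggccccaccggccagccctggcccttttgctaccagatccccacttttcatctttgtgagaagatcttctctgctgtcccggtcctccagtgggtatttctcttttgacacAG
Bcl2l11, block of the extra long and long forms: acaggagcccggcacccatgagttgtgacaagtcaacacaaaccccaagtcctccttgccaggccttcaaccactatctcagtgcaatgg
Their GC content was 61.3% and 54.4%, and the coding sequences have 196 codons in the extra long, 140 in the long and 110 in the short form.

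The long form was the most abundant Bcl2l11 transcript in Mff-/- and the extra long form in the control. In Dnm1l-/- and Fis1-/- it was NM_001291016, one of the transcripts that end early, at 1.91 and 2.37 FPKM. The extra long form (NM_207680) held 2.21 FPKM in control and 1.87, 2.16 and 1.08 in Dnm1l-/-, Fis1-/- and Mff-/-. The long form (NM_207681) held 1.73, 1.25, 1.23 and 4.13 FPKM, from an estimated 321, 217, 218 and 722 fragments. Its share of the gene was 54.6% in Mff-/- and 19.3% to 26.3% in the other libraries. The short form (NM_009754), the most potent of the 3 proteins when forced into cells, held 0.756, 0.137, 0.103 and 0.677 FPKM, or 137, 23, 18 and 116 fragments. It was low in the same libraries as Bmf, Dnm1l-/- and Fis1-/-. The remaining 2 transcripts end at base 128131498, before the exons that code for the BH3 motif, and summed to 1.90, 2.40, 2.88 and 1.68 FPKM. Transcripts with the last exons therefore made up 71.2% of the gene in control and 57.6%, 54.8% and 77.8% in Dnm1l-/-, Fis1-/- and Mff-/-. In FPKM they were at 4.70, 3.26, 3.5 and 5.89, a wider range than that of the whole gene. The forms share most of their sequence, so their levels are estimates of the quantifier.

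**Figure D4:**
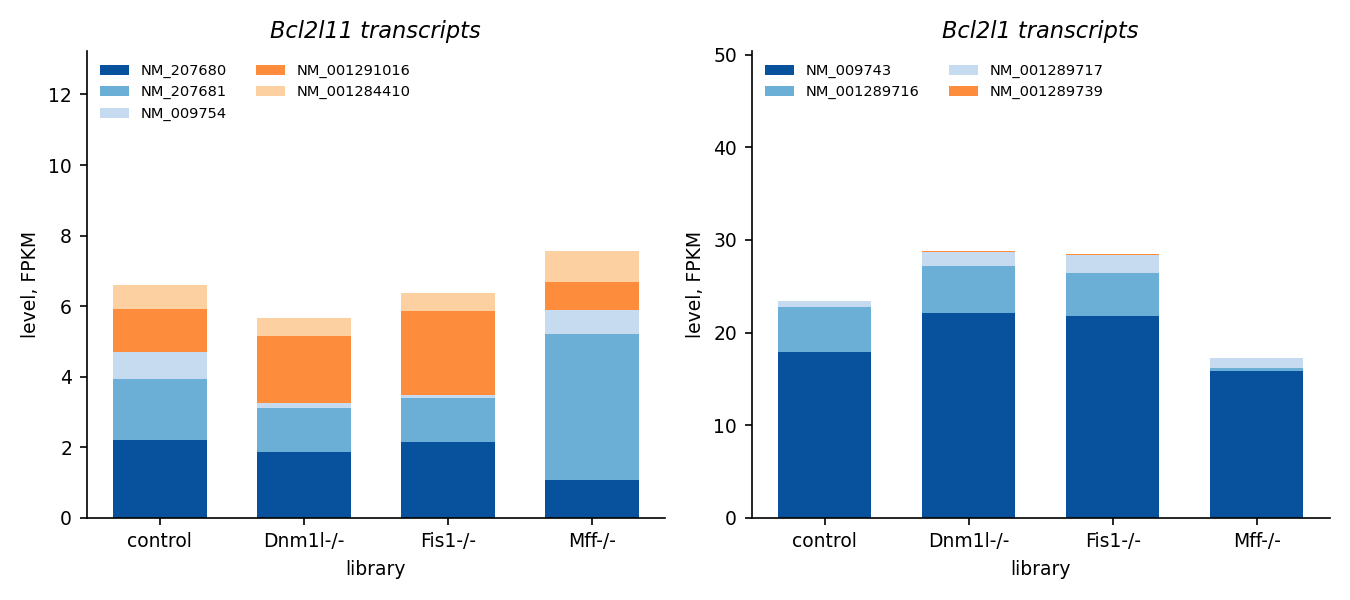
Level in FPKM (vertical, stacked bars from 0) of the transcripts of Bcl2l11 (left) and Bcl2l1 (right) in the control, Dnm1l-/-, Fis1-/- and Mff-/- libraries. NM_207681 takes 54.6% of the Bcl2l11 bar in Mff-/-, and NM_001289716 stands at 4.84 FPKM in control and 0.344 in Mff-/-.

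In Dnm1l-/- and Fis1-/- the median of the protective members lay above that of the death-promoting members, and in Mff-/- below it. In Dnm1l-/- the median difference of the 7 death-promoting members was -0.19 and that of the 2 protective members that passed the limit 0.25, and in Fis1-/- -0.07 and 0.32. In Mff-/- they were 0.34 and -0.17, where the protective value is the midpoint of Bcl2l1 (-0.42) and Mcl1 (0.09, without a settled direction). Death-promoting less protective, this came to -0.44, -0.39 and 0.50, and to -0.41, -0.34 and 0.44 with Bcl2 included. The medians over all genes compared were 0.01, 0.01 and -0.07. Not every member followed its group: 3 of 7 death-promoting members lay above control in Dnm1l-/- and 2 in Fis1-/-, among them Bid and Bad both times, and Bmf and Bid lay below control in Mff-/-, while Mcl1 did not follow Bcl2l1 there. By role, the effectors had medians of -0.11, -0.24 and 0.51 and the BH3-only members -0.19, -0.04 and 0.17. Medians over 2 to 7 genes of 1 library each give no measure of error.

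Summed over their FPKM, the protective members came to 145 in control and 171, 185 and 147 in Dnm1l-/-, Fis1-/- and Mff-/-, and the death-promoting members to 385, 335, 308 and 527. The ratio of protective to death-promoting RNA was 0.377 (0.369 to 0.385) in control and 0.509 (0.497 to 0.520) in Dnm1l-/-. It was 0.601 (0.587 to 0.614) in Fis1-/- but 0.279 (0.274 to 0.285) in Mff-/-. It was highest in Fis1-/- and lowest in Mff-/-, and a ratio within a library does not depend on how that library was scaled. Bax made up 73.4% to 80.3% of the death-promoting sum, and Mcl1 83.0% to 88.2% of the protective sum. Without Bax, chosen after its share was seen, the ratios were 1.72 (1.67 to 1.77), 2.16 (2.09 to 2.23), 2.26 (2.19 to 2.32) and 1.42 (1.38 to 1.46), in the same order of libraries. The ratio of Mcl1 to Bcl2l1 was 5.18, 4.92, 5.49 and 7.53. The transcripts of Bax and Mcl1 differ in length, with 869 and 3487 bases, and in GC content, with 59.2% and 48.7%. Mff-/- also showed the length trend described above. Difference and GC content had a rank correlation of -0.33 for Dnm1l-/-, -0.40 for Fis1-/- and 0.15 for Mff-/-, over 10602 genes. Dnm1l-/- and Fis1-/- thus tended to lower values for GC-rich genes, which is the direction of their higher ratios. The part of length or of GC content in the ratios was not tested.

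The other BH3-only genes were Pmaip1, Bik and Hrk. Hrk, which promotes death in neurons, was at 1.53 FPKM in control and 0.219, 0.133 and 2.74 in Dnm1l-/-, Fis1-/- and Mff-/-, with differences of -1.05, -1.16 and 0.56. Bik, whose protein resides at the endoplasmic reticulum, was at 2.88, 1.25, 0.873 and 2.41 FPKM, with differences of -0.79, -1.05 and -0.19. Pmaip1, which encodes the MCL-1 antagonist NOXA, was lower than control in all 3 knockouts, at 6.92, 3.57, 4.08 and 2.61 FPKM. With the 5 members these make 8 BH3-only genes, a grouping made with their values known. Of the 8, 5 were at least 1.5-fold lower in Dnm1l-/-, against 7.25% of all genes. In Fis1-/- 4 were so, against 6.93%, and in Mff-/- 1, against 13.1%. Higher by that size were 0, against 6.40%, 5.55% and 10.8% of all genes in the same order. Hrk in Mff-/- was 1.79 times control in FPKM, but its 0.56 on the log2(FPKM + 1) scale stayed under that size. The medians of the 8 were -0.72, -0.58 and 0.03. The counts in Dnm1l-/- and Fis1-/- include Bmf and Hrk, which passed the limit on low values through control and Mff-/- only.

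Among 58 other genes of the pathway, listed by role with earlier results of these data known, 51 passed the limit. At 2-fold, 1 was higher and 1 lower in Dnm1l-/-, 1 and 2 in Fis1-/-, and 1 and 3 in Mff-/-. Of all genes, 2.51% were higher and 2.09% lower in Dnm1l-/-, 1.80% and 1.89% in Fis1-/-, and 2.61% and 2.89% in Mff-/-, so that counts of 1 in 51 are near the background. Their medians were 0.07, 0.01 and 0.05, near those of all genes. Of the other BCL-2 family genes, 8 of 13 passed. Bcl2l13, a mitophagy receptor of the outer membrane, was at 11.6 FPKM in control and 11.4, 14.2 and 5.10 in Dnm1l-/-, Fis1-/- and Mff-/- (difference -1.04). Bok, a relative of the effectors, was at 5.98, 4.81, 6.58 and 5.46 FPKM, and Bcl2l2, which encodes the protective BCL-W, at 2.05, 3.04, 2.53 and 2.68. Next to Mcl1 and Bcl2l1 the protective gene Bcl2l2 was thus low throughout. The 3 Bcl2a1 copies in the list, near-identical genes whose reads cannot be told apart well, were each under 0.38 FPKM.

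Of the 7 apoptosome and caspase genes, Cycs was at least 2-fold higher in Mff-/- and 0 others passed that size. Cycs encodes cytochrome c and stood at 34.0 FPKM in control and 36.4, 35.2 and 71.5 in Dnm1l-/-, Fis1-/- and Mff-/-. Its Mff-/- difference of 1.05 was under 2-fold when libraries were set to a common FPKM total or to TPM, and with the 1% setting. Apaf1, the scaffold of the apoptosome, was at 3.26, 3.46, 3.25 and 2.73 FPKM, and Casp9, the caspase it activates, at 5.52, 5.26, 5.09 and 3.46. The apoptosome genes Apaf1 and Casp9 thus lay close to control in Dnm1l-/- and Fis1-/-. In Mff-/- Casp9 was lower, with a difference of -0.55, and Apaf1 less so, with -0.19. Genes with transcripts of 4000 bases or more had a median of -0.31 there, and Apaf1 has 6557 bases. The part of length in the Apaf1 and Casp9 values was not tested. Among 9 genes for proteins released from mitochondria or for caspase inhibitors, 0 reached 2-fold. Diablo, which relieves that inhibition, was at 29.0, 26.4, 25.7 and 30.3 FPKM, and Xiap, the inhibitor it binds, at 5.79, 8.34, 6.94 and 4.52. Of the 8 death receptor genes, 6 passed the limit and 0 reached 2-fold on the log2(FPKM + 1) scale. Tradd lay farthest of the 6 from control, at 5.28 FPKM there and 2.88, 2.76 and 2.41 in Dnm1l-/-, Fis1-/- and Mff-/-. Its differences were -0.69, -0.74 and -0.88, and its Mff-/- level was 45.7% of control. By 1.5-fold, 1 of the 6 (Tradd) was lower in each knockout, against 7.25%, 6.93% and 13.1% of all genes. The count higher by that size was 0, against 6.4%, 5.55% and 10.8%. Casp8, whose product cleaves BID, stayed near the limit at 0.516, 1.01, 0.869 and 0.624 FPKM.

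Among 21 regulators of the members, Pim1 was at least 2-fold higher in Dnm1l-/- and Fis1-/- and Foxo3 at least 2-fold lower in Mff-/-. Pim1, a kinase that phosphorylates BAD, was at 24.5 FPKM in control and 51.7, 55.9 and 20.5 in Dnm1l-/-, Fis1-/- and Mff-/-, with differences of 1.05, 1.16 and -0.25. Pim2 and Pim3, kinases of the same family, lay below control in Dnm1l-/- (-0.97 and -0.46) and Fis1-/- (-0.54 and -0.37). Foxo3, a transcription factor of Bcl2l11 and Bbc3, was at 4.86, 3.98, 4.15 and 1.48 FPKM, with a difference of -1.24 in Mff-/-. In that library the difference of Bbc3 was 0.37, or 0.15 to 0.43 over the scalings, and that of Bcl2l11 was 0.17, which has no settled direction (-0.02 to 0.24). Vdac2, which holds BAK at the outer membrane, was even across libraries at 183, 197, 198 and 200 FPKM.

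**Figure D5:**
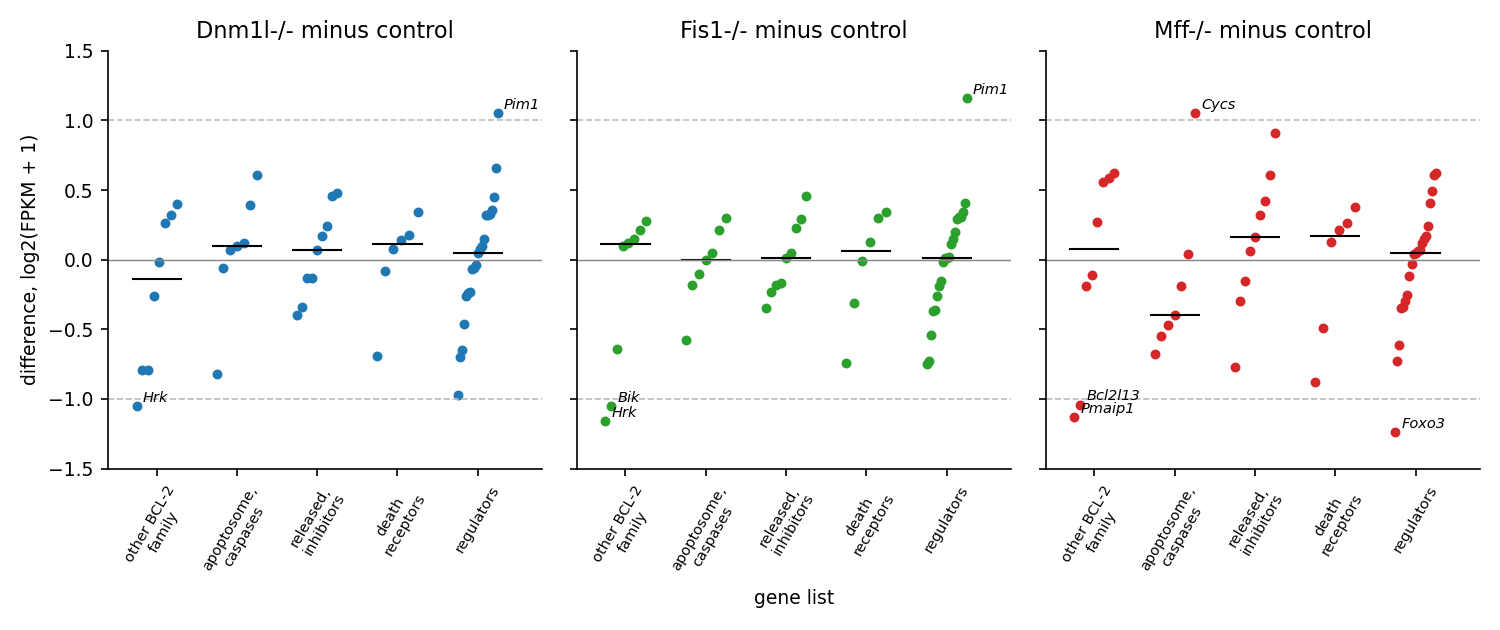
Difference of each knockout from control on the log2(FPKM + 1) scale (vertical) for the 51 pathway genes that passed the limit, by list; each point is a gene, the bar is the median, and dashed lines mark 2-fold. Pim1 lies above 2-fold in Dnm1l-/- and Fis1-/-, Cycs in Mff-/-, and Hrk, Bik, Pmaip1, Bcl2l13 and Foxo3 lie below it in at least 1 knockout.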

How the data were processed

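RNA of 4 mouse embryonic stem cell lines was sequenced, 1 library each, and libraries were grouped by their genotype labels. The authors deposited 1 table of FPKM values per RefSeq transcript with transcript lengths and positions, per the file headers. The tools named, without role, were STAR 2.5.2b, StringTie 1.3.3b, FastQC 0.11.5 and R 3.6.1 with build mm10, per the submitters' processing notes. FPKM divides by transcript length and library total, so errors of either shift a value. The column for Dnm1l bears the synonym Drp1, and 1 empty line was not analysed here.

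FPKM was summed per gene symbol with Python 3.11.15 and pandas 2.3.3. Of 565 transcripts without a symbol, 552 were named by gene ID through a RefSeq table (GRCm38.p6). Genes with a mean of at least 1 FPKM (10688) were compared on the log2(FPKM + 1) scale, knockout minus control, which understates differences of low genes, and counted at 2-fold and 1.5-fold. No count model was used. Fragments were estimated from the spacing of low values in single-transcript genes of at least 3000 bases. In control, Dnm1l-/-, Fis1-/- and Mff-/-, 89.1%, 91.2%, 89.6% and 91.5% of 599, 656, 637 and 658 such values lay within 0.15 of a whole multiple, which gave 38000000, 35500000, 36300000 and 35900000 fragments. Intervals (95%) cover counting error only. The difference step was tested on simulated data.

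Members and lists were chosen with earlier results of these data known. Named were all members, pathway genes past 2-fold or defining a role, the targeted genes and the 3 genes nearest to a member past 2-fold. Of the role-defining genes, 1 is not reported here. Marker lists covered stem cells, feeders, primitive endoderm (sums of 3.04, 1.20, 0.824 and 1.88 FPKM in the same order), trophoblast (2.23, 4.79, 4.18 and 3.07), neural cells (76.6, 26.8, 41.8 and 58.6) and blood (1.56, 1.55, 0.954 and 2.94). Promoters were credited to RefSeq and found for 10 of 10 members. Alternatives covered the pseudocount, the filter, 4 scalings, transcript choice and the fold.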

Additional observations from a re-analysis of the deposited data

Results flagged for a closer look

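A pair of regulators lay on opposite sides of control in different knockouts, each by more than 1.5-fold. Pim2, a kinase that phosphorylates BAD, differed by 1.59 on the log2(FPKM + 1) scale between Mff-/- and Dnm1l-/- (0.62 and -0.97). Ywhab, which encodes a 14-3-3 protein of the kind that binds BAD, differed by 1.32 between Mff-/- and Dnm1l-/- (0.61 and -0.70) and by 1.36 between Mff-/- and Fis1-/- (0.61 and -0.75). The difference was not tested in either case, since each group has 1 library.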

How the results depend on the processing

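No paired analysis was possible because each genotype has 1 library, and for the same reason no replicate could be left out. Of 210 differences of members under other settings, 40 moved beyond their counting interval, 0 turned while past 2-fold, and 6, in Mcl1 and Bcl2l11, changed sign as given above. The median of all genes in Mff-/- moved from -0.07 to -0.22 under a common FPKM total, -0.23 under TPM and -0.25 with the 1% most abundant genes left out. All genes at least 2-fold higher and lower in Mff-/- then numbered 153 and 520, 191 and 701, and 142 and 587, in place of 279 and 309, and 345 and 233 when centred on the median. Member counts at 2-fold moved only with the fold: 2 lower in Dnm1l-/- at 1.5-fold. In the pathway list, 1.5-fold gave 3 higher and 8 lower in Dnm1l-/-, 1 and 6 in Fis1-/-, and 7 and 8 in Mff-/-. These are out of 51 genes. Of all genes, 6.4% were higher and 7.25% lower by that size in Dnm1l-/-, 5.55% and 6.93% in Fis1-/-, and 10.8% and 13.1% in Mff-/-. Pathway genes lower in Dnm1l-/- at 2-fold became 3 with a pseudocount of 0.1 and 2 under TPM. All genes lower there then numbered 380 and 288, in place of 223. The pathway gene higher in Mff-/- was lost, leaving 0, under a common total, TPM and the 1% setting. With the highest transcript only, the median difference of death-promoting less protective members in Fis1-/- was -0.61, and the protective to death-promoting ratio 0.367 in control and 0.495 in Dnm1l-/-. Without Bax that ratio was 1.72, 2.16, 2.26 and 1.42. Depth limits Bcl2, with 18 to 32 fragments, and the rarer transcripts of Bcl2l1 and Bcl2l11.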
